A study of Populus deltoides with 12 samples.

Results

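‘Zhongshanyuan’ (ZSY) is a colored-leaf cultivar of *Populus deltoides* that bears both green and purple leaves, so its leaf colors can be compared within 1 cultivar. The comparison F_P vs. F_G uses 6 of the 12 libraries of the study, 3 from purple leaves of ZSY (F_P) and 3 from green leaves of ZSY (F_G), and covers every gene of the deposited tables. The other 6 libraries, purple leaves of ‘Quanhong’ (QHP; P) and green leaves of L2025 (G), come from 2 further cultivars. They served to test where the change in ZSY differed from that in P vs. G and, through the study's lists, to choose gene groups, and some of their levels are given beside those of ZSY. All groups are labelled as leaf tissue of genotype WT, and no transgene or treatment is named for any group. The study's introduction names ZSY and QHP among poplars derived from L2025. Per its methods, the leaves were fully expanded, and the 3 samples of a color are independent biological replicates. The number of plants behind a sample, and whether purple and green leaves came from the same plants, are not stated in these sources. A p-value therefore measures only the spread between these samples.

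Anthocyanins, the red to purple pigments of leaf vacuoles, are made by the flavonoid pathway from phenylalanine by way of the phenylpropanoid pathway. Chalcone synthase (CHS) makes the first flavonoid skeleton, flavanone 3-hydroxylase (F3H) hydroxylates it, and flavonoid 3′-hydroxylase (F3′H) and flavonoid 3′,5′-hydroxylase (F3′5′H) add the hydroxyl groups that set the hue. Dihydroflavonol 4-reductase (DFR) and anthocyanidin synthase (ANS) then form the colored anthocyanidin, which UDP-glucose:flavonoid glucosyltransferase (UFGT) stabilizes with a sugar. Flavonol synthase (FLS) draws on the same intermediates to make colorless flavonols. In many plants, complexes of MYB, bHLH, and WD40 proteins switch these genes on.

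Expression was deposited as FPKM, the fragments of a gene per kilobase of its exons and scaled by a library size. The library size behind the FPKM was 1.03 to 1.05 times the fragments counted on annotated genes in F_G and 0.995 to 1.00 times in F_P. From 14543579 to 15858408 fragments per F_G library and from 16056300 to 16628923 per F_P library were assigned to annotated genes. Replicates were closer to each other in F_P than in F_G: the root mean square log2 difference of a library from the other 2 of its group was 0.232 to 0.238 in F_P and 0.347 to 0.372 in F_G. In the study's sequencing summary, the mapped share of reads and the GC content also varied more among F_G than among F_P libraries. No 2 libraries held identical values, and all replicate pairs differed by more than counting noise (chi-square per gene 2.82 to 2.93 in F_P and 6.33 to 9.60 in F_G). Of the 74 photosynthesis genes used as markers of green leaf cells, none was at 0 in all libraries of a color, and their summed level was at least 18068 FPKM in every ZSY library.

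Of 46170 genes, 25713 had at least 1 FPKM in at least 3 of the 6 libraries and were tested on the log2(FPKM + 1) scale with limma. On this scale the change of weakly expressed genes is understated. DEGs had to pass 0.05 after Benjamini-Hochberg adjustment over all genes tested and to change by 1 or more on the log2 scale in either direction, and 4685 genes (18.2%) were DEGs. Of these, 1461 (5.68% of the genes tested) were upregulated in purple leaves and 3224 (12.5%) were downregulated. At any size of change, 14301 genes (55.6%) had an adjusted p of at most 0.05. In 63.4% of the genes tested, all 3 F_P values lay on one side of the 3 F_G values, and the median log2 fold change was 0.04. This median was −0.02 both after scaling to total fragments and with limma voom on recovered fragments.

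Downregulated genes outnumbered upregulated ones most under 10 FPKM. Among the 5658 tested genes with a mean under 3 FPKM over the 6 libraries, 4.84% were upregulated and 22.1% downregulated. The share of upregulated genes among the DEGs was 18% in that class, 28.2% between 3 and 10 FPKM, 43.4% between 10 and 30 FPKM, and 52.5% between 30 and 100 FPKM. It was 46.7% between 100 and 300 FPKM and 40.4% above 300 FPKM. These classes, like the next ones, rest on the same values as the calls. In all, 1679 tested genes had at least 1 FPKM in all 3 F_G libraries and in no F_P library, of which 1381 were downregulated. The reverse pattern, at least 1 FPKM in all 3 F_P libraries and in no F_G library, was held by 299 tested genes, of which 175 were upregulated. Among the 21171 genes with at least 1 FPKM in every library, 1082 were upregulated and 1483 downregulated.

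**Figure D1:**
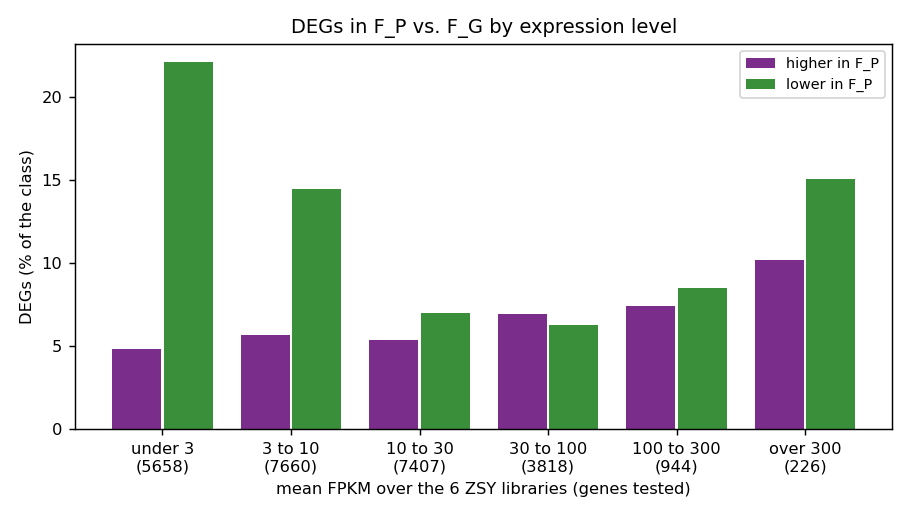
Share of DEGs in F_P vs. F_G by expression level. The x axis gives classes of the mean FPKM over the 6 ZSY libraries with the number of genes tested, and the y axis the percentage of the class that was higher (purple bars) or lower (green bars) in F_P. Genes under 3 FPKM were downregulated in 22.1% and upregulated in 4.84%, whereas between 30 and 100 FPKM the shares were 6.26% and 6.91%.

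Markers of leaf cell types were compared between the colors, and their part in the results below was not tested. The lists were built from functional terms that the study assigned to DEGs of P vs. G. Of all 814 tested genes of such lists, 12.4% were upregulated and 28.5% downregulated in F_P vs. F_G. Of the markers of green leaf cells (photosystems, antenna, oxygen evolution, and the photosynthesis list), 2 of 70 tested were upregulated (2.86%) and 8 downregulated (11.4%), against 5.68% and 12.5% of all genes tested, and their summed level was 23131 to 26485 FPKM in F_G and 18068 to 18346 FPKM in F_P, with none of the 74 at 0 in all libraries of a color. Of the markers of dividing cells (DNA replication, mismatch repair, and microtubule motors), 1 of 26 tested was upregulated and 15 downregulated, and the sum was 156 to 172 FPKM in F_G and 110.5 to 113 FPKM in F_P. Of these 55 markers, 2 were at 0 in all F_G libraries and 3 in all F_P libraries. The DNA replication list alone summed to 55.6 to 59.2 FPKM in F_G and 55.5 to 58.2 FPKM in F_P. Epidermis markers (cutin, wax, and fatty acid elongation) counted 1 upregulated and 11 downregulated of 19 tested, with sums of 254 to 271 FPKM in F_G and 187 to 189.8 FPKM in F_P. Of these 34 markers, 3 were at 0 in all F_G and 7 in all F_P libraries. Markers of secondary walls (cellulose synthases and copper-binding proteins) counted 4 upregulated and 18 downregulated of 40 tested, with sums of 2004 to 2095 FPKM in F_G and 1805 to 1862 FPKM in F_P, and 2 of the 52 were at 0 in all F_G and 5 in all F_P libraries. Their 2 lists went opposite ways in summed level. The cellulose synthase sum was 255 to 263 FPKM in F_G and 382 to 386 FPKM in F_P, mostly through 1 gene, Podel.03G153800. The copper-binding sum was 1749 to 1835 FPKM in F_G and 1422 to 1480 FPKM in F_P. In whole leaves, fewer cells of a type and less RNA per cell cannot be told apart.

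The structural genes of flavonoid biosynthesis were followed in the order of the pathway. The study named 37 such genes, which it selected with these libraries in view, so their counts are not independent evidence of a direction. Of these, 32 passed the filter, 12 were upregulated, and 10 were downregulated. Members of a family can share stretches of sequence, and PdeCHS1 and PdeCHS2, which lie close together on chromosome 14, do so within the qRT-PCR primers of the study. The end of the PdeCHS1 product, given as the reverse complement of its reverse primer, and the forward primer of PdeCHS2 share a run of 14 bases, shown in capitals.
PdeCHS1, reverse primer as its reverse complement: ctatCCTGACTACTACTTccgga
PdeCHS2, forward primer: cCCTGACTACTACTTtcgcatc
A run this short does not show that fragments were split between the copies, and the gene sequences were not compared. Whether longer shared stretches split fragments was not tested, so values of single members are uncertain to that extent. The other genes on which the results turn are identified by the forward primers of the study, which have no marked part and stand in lower case.
PdeF3H2: accttcttctcgtacccaattc
PdeF3'H1: gtgacccaaaggcagatgaa
PdeANS3: ctccaccagaccctcttaaatc
PdeUFGT5: ccaagctggtagaggatgttt
PdeMYB1: atggctgacactgaacattct
PdeMYB2: cggagaaggcaaatggagaa

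Summed CHS expression in FPKM was 4.76-fold higher in purple leaves, and most of it came from PdeCHS2. PdeCHS2 (Podel.14G153100; chromosome 14, 11144097 to 11146089) had 167, 183, and 181 FPKM in F_G and 1064, 1059, and 1036 FPKM in F_P (log2 fold change 2.57, SE 0.05, adjusted p = 6.07e-08). The 2 groups did not overlap, and the increase was 5.94-fold. The values of PdeCHS1 (Podel.14G152900; chromosome 14, 11135855 to 11137937) were 29.5, 22.7, and 24.6 FPKM in F_G and 67.8, 112, and 80.1 FPKM in F_P (log2 fold change 1.70, SE 0.18, adjusted p = 1.28e-04). PdeCHS6 rose 3.38-fold, from 7.63 ± 1.38 to 25.8 ± 1.92 FPKM (mean ± SD, n = 3). PdeCHS3 was 1.77-fold higher in F_P without reaching the minimum change (log2 fold change 0.80), PdeCHS4 had a log2 fold change of −0.02, and PdeCHS5 stayed under 1 FPKM in all 6 libraries. The summed FPKM of the 6 CHS genes was 259.5 ± 3.54 FPKM in F_G and 1235 ± 33.9 FPKM in F_P, a ratio of 4.76. PdeCHS2 made up 65.6% to 70.0% in F_G and 83.2% to 86.7% in F_P of that sum, and the shares did not overlap. In the study's qRT-PCR, PdeCHS1 and PdeCHS2 were both higher in F_P than in F_G, but the increase was larger for PdeCHS1. That order is the reverse of the order in FPKM, and the disagreement was not resolved here.

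The F3H genes went the other way. Of 4 F3H genes, PdeF3H2 and PdeF3H4 fell and none rose. PdeF3H2 (Podel.05G127100; chromosome 5, 9516286 to 9518555), which made up at least 91.5% of the family's FPKM in every library, had 122, 118, and 119 FPKM in F_G and 29.4, 33.1, and 26.3 FPKM in F_P (log2 fold change −1.99, SE 0.08, adjusted p = 1.33e-06), 4.04-fold lower in purple leaves and without overlap. The study's qRT-PCR of PdeF3H2 gave the opposite direction, a higher level in F_P than in F_G, and also in P than in G. The fall of PdeF3H2 thus rests on FPKM alone, and the disagreement was not resolved here. PdeF3H4 had 1.09, 1.42, and 1.75 FPKM in F_G and 0.0524, 0.104, and 0.403 FPKM in F_P (log2 fold change −1.03), and its call was lost when F_G replicate 3, F_P replicate 1, or F_P replicate 2 was left out (log2 fold changes −0.93, −0.95, and −0.98). PdeF3H1 and PdeF3H3 had log2 fold changes of −0.89 and −0.65. The sum of the family was 126 ± 1.20 FPKM in F_G and 31.6 ± 3.48 FPKM in F_P.

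The hydroxylases of the B ring split. PdeF3'H1 (Podel.13G079600; chromosome 13, 6638261 to 6640746), whose enzyme class makes the precursors of cyanidin, had 133, 129.8, and 145 FPKM in F_G and 549.8, 526, and 518 FPKM in F_P (log2 fold change 1.96, SE 0.06, adjusted p = 2.84e-07), a 3.91-fold increase without overlap. PdeF3'H2, which the study also lists under brassinosteroid biosynthesis, fell 4.70-fold, from 24 ± 1.99 to 5.11 ± 0.773 FPKM (mean ± SD, n = 3). PdeF3'H3 was under 1 FPKM in all 6 libraries. PdeF3'H1 thus held 83.6% to 86.5% in F_G and 98.8% to 99% in F_P of the F3'H sum. Both F3'5'H genes, whose enzyme class makes the precursors of delphinidin, fell: PdeF3'5'H1 from 2.49 ± 0.850 to 0.0224 ± 0.0194 FPKM (mean ± SD, n = 3) and PdeF3'5'H2 from 5.62 ± 0.307 to 1.05 ± 0.441 FPKM (mean ± SD, n = 3). The summed F3'5'H level was 8.11 ± 0.577 FPKM in F_G and 1.08 ± 0.460 FPKM in F_P, whereas the summed F3'H level was 160.4 ± 6.55 FPKM in F_G and 537 ± 16.5 FPKM in F_P. On this scale per exon length, F3'H was the more expressed family in both colors.

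The late genes of the pathway differed in level and in the shares of single members. PdeDFR (Podel.01G063100) had 16.6, 18, and 13.8 FPKM in F_G and 29.9, 30.7, and 32.7 FPKM in F_P, 1.93-fold higher in purple leaves and without overlap, but with a log2 fold change of 0.91 it was not a DEG. Its gene model joins 11 exons of 4846 bases and is listed by the study under hormone signaling as well, so its FPKM may not stand for DFR alone. For PdeDFR, the study's qRT-PCR gave a larger increase in F_P over F_G than FPKM did. Of 6 ANS genes, PdeANS3 rose and PdeANS5 and PdeANS6 fell. PdeANS3 (Podel.15G029700; chromosome 15, 2519190 to 2520712) had 5.96, 10.3, and 9.03 FPKM in F_G and 46, 45, and 48.1 FPKM in F_P (log2 fold change 2.36, SE 0.17, adjusted p = 1.60e-05). PdeANS5 fell from 10.9 ± 0.586 to 3.52 ± 0.214 FPKM (mean ± SD, n = 3) and PdeANS6 from 4.28 ± 2.01 to 0.0749 ± 0.103 FPKM (mean ± SD, n = 3). PdeANS1, PdeANS2, and PdeANS4 had log2 fold changes of 0.57, 0.46, and 0.90. The ANS sum was 31.6 ± 2.07 FPKM in F_G and 63.8 ± 0.935 FPKM in F_P. Within it, PdeANS3 held 18.7% to 34.9% in F_G and 71.3% to 74.1% in F_P.

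FLS and UFGT genes followed. All 3 tested FLS genes rose. PdeFLS2 rose 3.62-fold, from 17.5 ± 0.705 to 63.4 ± 1.75 FPKM (mean ± SD, n = 3). PdeFLS4 rose 2.08-fold, from 32.5 ± 2.24 to 67.6 ± 0.70 FPKM (mean ± SD, n = 3). PdeFLS3 rose at a low level, from 0.504 ± 0.127 to 2.81 ± 0.366 FPKM (mean ± SD, n = 3). The change of PdeFLS4 was close to the minimum and was not called when F_G replicate 1 was left out (log2 fold change 0.998), after scaling to total fragments (0.974), or with limma voom (0.988). PdeFLS1 was at 0 in all F_P libraries and below 1 FPKM in F_G. The FLS sum was 51 ± 1.43 FPKM in F_G and 134 ± 1.41 FPKM in F_P. Of 9 tested UFGT genes, 4 rose and 3 fell. PdeUFGT5 (Podel.07G150600; chromosome 7, 15633479 to 15635874) had 69.2, 80.9, and 76.8 FPKM in F_G and 183, 193, and 187 FPKM in F_P (log2 fold change 1.30, SE 0.07, adjusted p = 3.13e-06). The increase of PdeUFGT5 in F_P over F_G was much larger in the study's qRT-PCR than in FPKM. PdeUFGT4 rose 2.47-fold, from 26.6 ± 2.32 to 65.6 ± 2.40 FPKM (mean ± SD, n = 3). PdeUFGT3 rose from 1.28 ± 0.701 to 10.9 ± 1.40 FPKM (mean ± SD, n = 3). PdeUFGT11 had 4.03, 2.61, and 8.75 FPKM in F_G and 9.12, 11.1, and 14.8 FPKM in F_P, its groups nearly touching, and its call was lost without F_G replicate 1, F_G replicate 2, F_P replicate 2, or F_P replicate 3 (adjusted p = 0.0707, 0.0589, 0.0558, and 0.0797 in limma). PdeUFGT9 had 81, 79.6, and 92.1 FPKM in F_G and 165, 158, and 158 FPKM in F_P and a log2 fold change of 0.92. PdeUFGT6, PdeUFGT8, and PdeUFGT10 fell, by log2 fold changes of −2.02, −1.08, and −1.96. The call of PdeUFGT8 was lost without F_G replicate 3 or F_P replicate 3 (log2 fold changes −0.94 and −0.97). The UFGT sum was 240.2 ± 16.6 FPKM in F_G and 450.4 ± 5.23 FPKM in F_P.

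**Figure D2:**
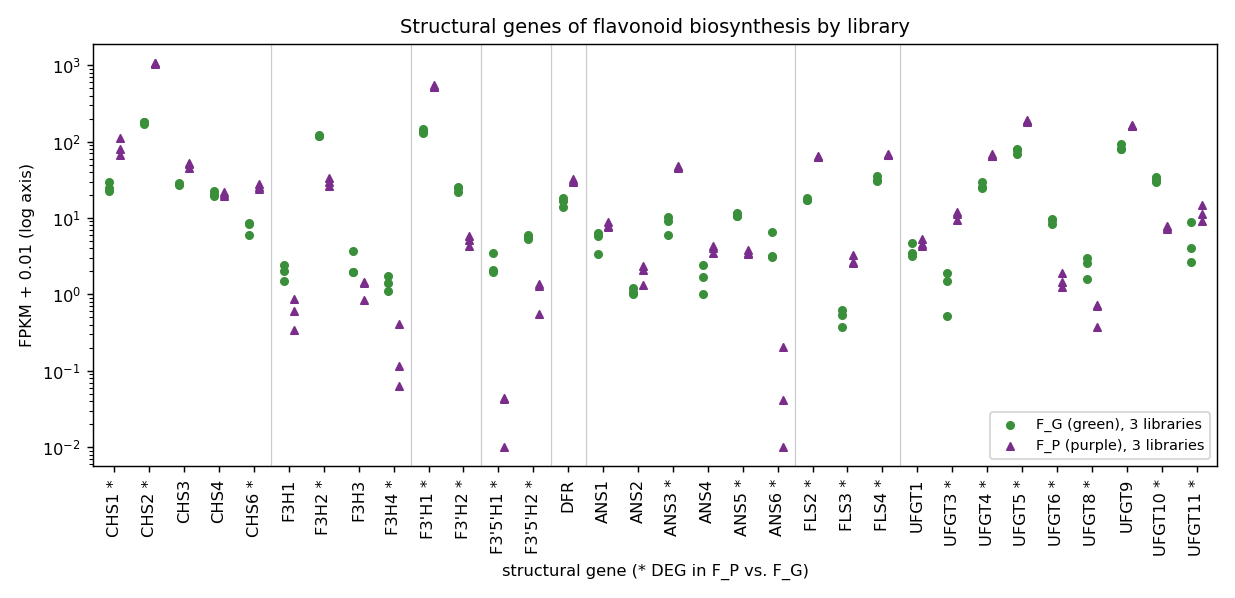
Structural genes of flavonoid biosynthesis by library. Each tested gene has 3 green circles (F_G) and 3 purple triangles (F_P) on a logarithmic FPKM axis, with families separated by lines and DEGs marked by an asterisk. PdeCHS2, PdeF3'H1, PdeANS3, and PdeUFGT5 are higher in all F_P libraries, and PdeF3H2, both F3'5'H genes, PdeUFGT6, and PdeUFGT10 are lower.

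**Figure D3:**
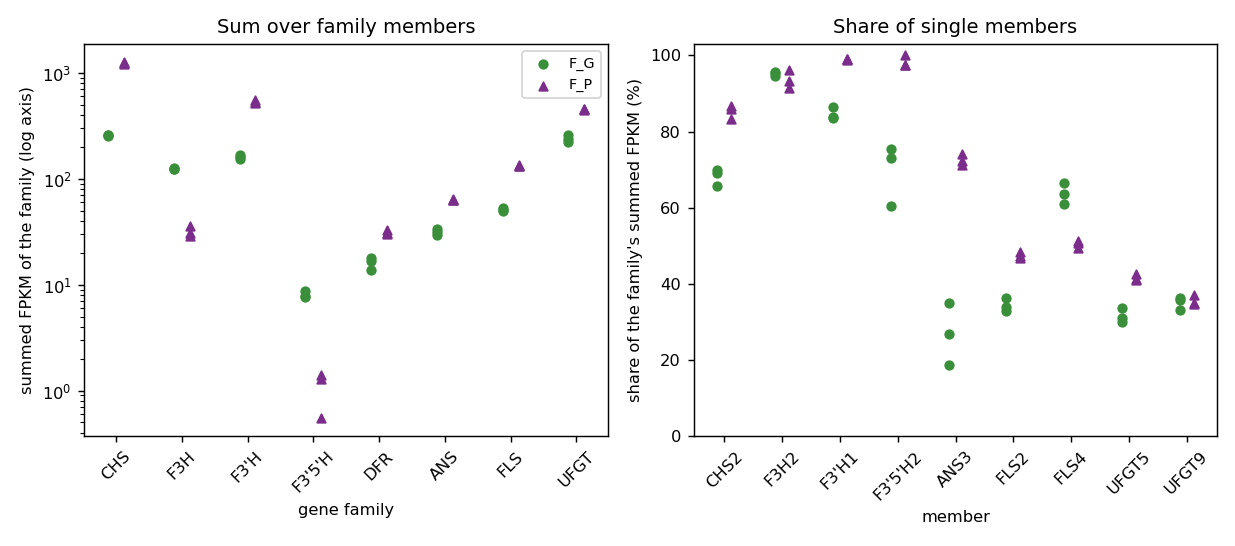
Summed FPKM of each family (left, logarithmic axis) and the share of single members in their family's sum (right, percent), 1 point a library, with F_G as green circles and F_P as purple triangles. The CHS sum has a ratio of 4.76 between the colors, the F3H sum is 3.98-fold and the F3'5'H sum 7.54-fold lower in F_P, and PdeANS3 goes from at most 34.9% to at least 71.3% of the ANS sum.

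Several of these genes lie in clusters along the chromosomes, and members of some clusters moved the same way. Of the neighbors PdeCHS4 and PdeCHS3 on chromosome 1 and PdeANS1 and PdeANS2 on chromosome 4, no gene was a DEG. On chromosome 7, PdeFLS3, PdeUFGT5, PdeUFGT9, PdeFLS4, and PdeUFGT11 lie between 15615820 and 15760953, and 4 of the 5 were upregulated. Of 10 other tested genes in that stretch, 2 were upregulated and none downregulated. On chromosome 9, PdeUFGT6, PdeUFGT8, and PdeUFGT10 lie between 8746175 and 8772652 and all fell, whereas the 2 other tested genes between them rose. On chromosome 5, PdeF3H1, PdeF3'5'H2, and PdeF3H2 lie within 19.3 kb, and the 2 latter fell. On chromosome 14, PdeCHS1, PdeCHS2, and PdeUFGT1 lie within 68.8 kb, both CHS genes rose, and none of 7 other tested genes was a DEG. Over the whole genome, 75.5% of 1067 pairs of neighboring DEGs had the same direction, 614 pairs both downregulated and 192 both upregulated. Of all DEGs, 31.2% were upregulated. With directions this unequal, most pairs would share a direction whatever their position, and that share was not computed.

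Upstream of CHS, the lists of the study for phenylpropanoid and phenylalanine metabolism were read. For this and the following groups, genes came from functional terms (KEGG pathways and GO terms) that the study assigned to DEGs of P vs. G, and thus from libraries other than the 6 compared here, unless stated otherwise. The study drew lists of the same terms from F_P vs. F_G as well. A gene that is held only by a list of that kind, which is not independent of these libraries, is marked as ZSY list. Some of the lists could be read only in part. Over all 814 tested genes of the P vs. G lists, 101 (12.4%) were upregulated and 232 (28.5%) downregulated in F_P vs. F_G. These genes were chosen as DEGs of another comparison of purple with green leaves. For 1 list, the shares over all listed genes are therefore a closer reference than those over all genes tested. The files give no description of single genes, so only the list of a gene is named. Of 36 tested phenylpropanoid genes, 13 rose and 12 fell, and the median log2 fold change was 0.41. In the phenylalanine list, 5 of 15 rose and 3 fell. Podel.08G046700, in both lists, had 122, 124, and 131 FPKM in F_G and 466, 471, and 464 FPKM in F_P (log2 fold change 1.88, SE 0.05, adjusted p = 1.39e-07). Podel.16G094900, also in both lists, rose 2.71-fold, from 102.6 ± 6.72 to 278 ± 3.35 FPKM (mean ± SD, n = 3). Podel.15G003000 (ZSY list) rose from 2.16 ± 0.365 to 28.8 ± 0.716 FPKM (mean ± SD, n = 3). Podel.04G013500, listed under phenylpropanoids and, on the F_P vs. F_G libraries, under peroxidases, fell from 734 ± 35.3 to 38.7 ± 2.15 FPKM (mean ± SD, n = 3). A further peroxidase of both lists, Podel.07G132300, had 64.7, 65, and 59.8 FPKM in F_G and 0, 0.0873, and 0 FPKM in F_P (log2 fold change −5.96).

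In the flavonoid list, 9 of 26 tested genes rose and 9 fell. Podel.13G027300, a flavonoid-list gene that is not among the 37 structural genes, had 9.52, 12.2, and 9.35 FPKM in F_G and 214, 217, and 213 FPKM in F_P (log2 fold change 4.26, SE 0.10, adjusted p = 1.14e-07), a 20.7-fold difference. Podel.02G036000 and Podel.04G031200 of the same list fell 21.8-fold and 15.2-fold, the latter from 142 ± 12.5 to 9.33 ± 0.266 FPKM (mean ± SD, n = 3). The stilbenoid, diarylheptanoid, and gingerol list counted 5 upregulated and 1 downregulated of 11 tested genes, with sums of 219.6 to 238 FPKM in F_G and 602 to 626 FPKM in F_P. Its Podel.16G033900, which the flavonoid and phenylpropanoid lists also hold, rose 3.08-fold, from 99.3 ± 6.63 to 306 ± 5.39 FPKM (mean ± SD, n = 3).

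Among the MYB and bHLH genes that the study selected on these libraries, more fell than rose. Of 11 MYB genes, 3 rose and 7 fell, and of 11 bHLH genes, 2 rose and 7 fell. The study's choice makes these counts a description only. PdeMYB1 (Podel.04G021100; chromosome 4, 1528728 to 1529923), of the R2R3-MYB subgroup SG5, had 11.4, 10.9, and 11.3 FPKM in F_G and 37.6, 33.3, and 41.7 FPKM in F_P (log2 fold change 1.65, SE 0.09, adjusted p = 4.84e-06). PdeMYB2 (Podel.06G234300), of the same subgroup, had 121, 119.6, and 99.3 FPKM in F_G and 31.3, 28, and 27 FPKM in F_P (log2 fold change −1.94). Both subgroup members were thus expressed in both colors and moved in opposite directions. Among the MYB genes, the largest decrease was that of Podel.09G121500 (chromosome 9, 10141045 to 10142580), with 102, 108, and 95.6 FPKM in F_G and 0.0798, 0.0795, and 0 FPKM in F_P (log2 fold change −6.61, SE 0.09, adjusted p = 1.65e-08). The bHLH gene Podel.09G122300, which lies with it in a stretch of 60.7 kb, fell from 11.6 ± 0.702 to 0.442 ± 0.327 FPKM (mean ± SD, n = 3). Another MYB and bHLH pair, Podel.07G028800 and Podel.07G028600, lies within 30.7 kb on chromosome 7, and both fell (log2 fold changes −2.00 and −2.70).

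Of the other MYB genes, Podel.14G127200 rose from 1.99 ± 0.0911 to 25.6 ± 1.57 FPKM (mean ± SD, n = 3) and Podel.08G221200 from 14.3 ± 0.924 to 49.1 ± 0.915 FPKM (mean ± SD, n = 3). Podel.06G163300, Podel.02G205100, Podel.06G106200, and Podel.02G040700 fell, with log2 fold changes between −2.48 and −1.01. The change of Podel.02G040700 lay at the minimum and was not called without F_G replicate 1 or F_P replicate 2 (log2 fold changes −0.94 and −0.97). Podel.17G037900 had a log2 fold change of −0.95. Of the bHLH genes, Podel.15G110700 and Podel.01G333900 rose 4.03-fold and 6.72-fold, the latter to a mean of only 5.16 FPKM. The bHLH gene Podel.03G099000 was at 0 in all F_P libraries against 11.1, 15, and 10.1 FPKM in F_G, at least 92.5-fold lower when a floor of 3 fragments per library is set. Podel.04G160100, Podel.05G135800, Podel.T132400, and Podel.14G157400 fell, with log2 fold changes between −3.61 and −1.15. Podel.01G109500 and Podel.02G199200 had log2 fold changes of 0.61 and −0.98 and were not DEGs. In the study's transcription factor list, which rests on these libraries, Podel.12G029300 and Podel.T298300 rose from 0.970 ± 0.162 to 42.5 ± 2.79 FPKM (mean ± SD, n = 3) and from 0.514 ± 0.248 to 20.05 ± 5.09 FPKM (mean ± SD, n = 3).

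The summed level of the P vs. G photosynthesis list was 11755 to 13117 FPKM in F_G and 8778 to 8808 FPKM in F_P. Of its 32 tested genes, 2 rose and 2 fell, shares of 6.25% each, and the median log2 fold change was −0.50. The shares that rose and fell were 5.68% and 12.5% over all genes tested, and 12.4% and 28.5% over all listed genes tested. Of 23 antenna genes, which bind the light-harvesting chlorophylls, 3 fell and none rose, with a median of −0.45 and sums of 9339.8 to 10909.7 FPKM in F_G and 7392 to 7604 FPKM in F_P. Of 14 photosystem I genes 1 fell, of 21 photosystem II genes 2 fell, and of 15 genes of oxygen evolution 1 fell, and no gene of these lists rose. Podel.01G437500 of the antenna list had 143, 151, and 166 FPKM in F_G and 76.3, 66.3, and 72.8 FPKM in F_P (log2 fold change −1.09), and Podel.08G050100 fell from 46.7 ± 2.30 to 16.2 ± 1.32 FPKM (mean ± SD, n = 3). Podel.06G269400, of the photosynthesis list, had 258, 260.1, and 234 FPKM in F_G and 79, 75.3, and 70.7 FPKM in F_P (log2 fold change −1.73, SE 0.06, adjusted p = 7.94e-07).

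A stretch of chromosome 13 held further photosynthesis genes, and 19 of its 20 tested genes fell. Among 7 runs of at least 5 neighboring tested genes that were all DEGs of 1 direction, the 2 longest adjoin each other between 15477139 and 15851038. This stretch of 373.9 kb, singled out after its values were seen, holds 213 gene models, of which 20 were tested, 19 fell, and none rose. The models are short: 77.9% have a single exon, against 19.4% elsewhere, and their median exon length is 363 bases against 1305. In all, 110 of the models were at 0 in the 6 libraries. Of the 20 tested genes, 6 are in the study's photosynthesis lists and 1 in its ribosome list.

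The summed FPKM of the stretch was 548, 836, and 1027 in the 3 F_G libraries and 117, 121, and 144 in the 3 F_P libraries. The groups did not overlap, and the spread among green libraries was wide, with the sum highest in F_G replicate 3. In Podel.13G173700, where F_G replicate 2 was highest, the values were 31.5, 69.3, and 39.4 FPKM in F_G and 12.3, 10.6, and 12.2 FPKM in F_P (log2 fold change −1.83, SE 0.25, adjusted p = 5.31e-04). The sums were 389, 359.8, and 252 in G and 120, 124, and 98.6 in P, where 9 of 16 tested genes fell. Gene models of equal exon length recur within the stretch, so fragments may be split between copies. Whether all fragments counted there came from chromosome 13 was not tested. Without the stretch, 0 of 13 photosystem I genes of the P vs. G list fell in place of 1 of 14. In the photosynthesis list that the study drew from F_P vs. F_G itself, 9 of 11 tested genes fell and 2 rose, and without the 6 tested genes of the stretch 3 of 5 fell and 2 rose.

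**Figure D4:**
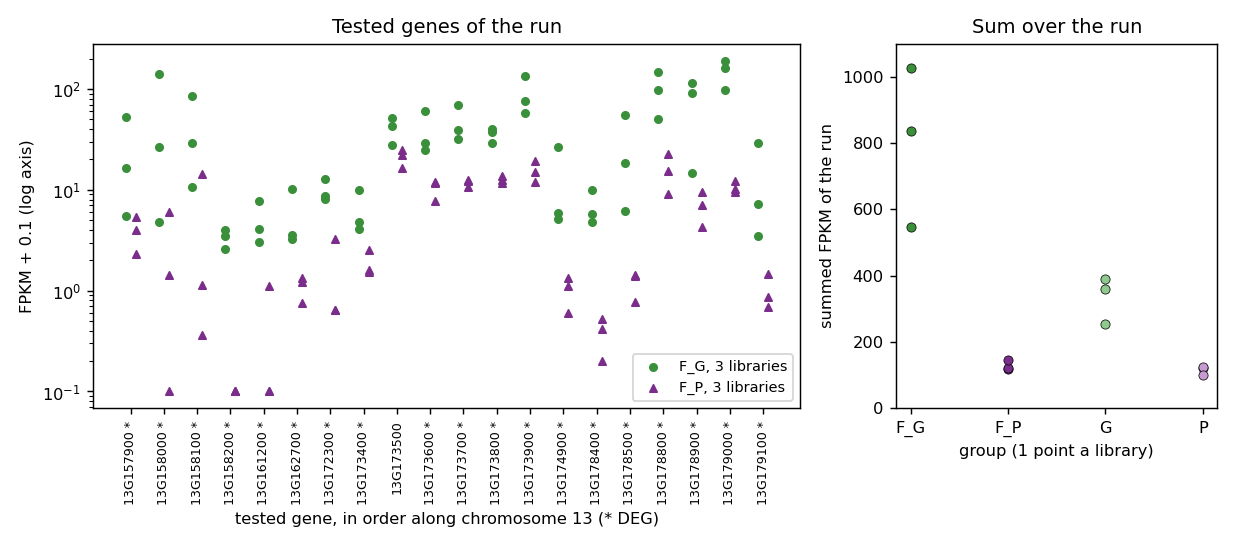
Genes of a stretch of chromosome 13. Left, FPKM (logarithmic axis) of the 20 tested genes in chromosomal order, with 3 green circles (F_G) and 3 purple triangles (F_P) each and DEGs marked by an asterisk. Right, summed FPKM over the 213 gene models of the stretch, 1 point a library, for the 4 groups: F_G libraries range from 548 to 1027 and F_P libraries from 117 to 144.

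Pigment and carbon genes differed among themselves. In the porphyrin and chlorophyll list, which covers the making of chlorophyll, 5 of 23 tested genes rose and 2 fell, with a median of 0.19 and sums of 698 to 728 FPKM in F_G and 857 to 902 FPKM in F_P. Podel.03G128000 had 30.5, 27.8, and 23.5 FPKM in F_G and 74, 79.5, and 79.5 FPKM in F_P (log2 fold change 1.48, SE 0.09, adjusted p = 9.42e-06), Podel.16G059900 (ZSY list) rose 2.53-fold, and Podel.09G082800 (ZSY list) fell 2.05-fold. The fall of Podel.09G082800 lay at the minimum change and its call was lost without F_G replicate 2 or 3 or F_P replicate 2 or 3 (log2 fold changes −0.972, −0.999, −0.968, and −0.993). Of 14 carotenoid genes, 6 fell and 2 rose, with a median of −0.76. Podel.19G097900 of that list fell from 26.5 ± 1.75 to 4.93 ± 0.788 FPKM (mean ± SD, n = 3), and Podel.09G160400 (ZSY list) rose from 10.1 ± 1.11 to 32 ± 1.52 FPKM (mean ± SD, n = 3).

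The summed level of the carbon fixation list was 3.55-fold lower in purple leaves (12079 to 14562 FPKM in F_G and 3581 to 3690.4 FPKM in F_P), and most of this came from a pair of genes. Of 26 tested genes, 8 fell and 2 rose, shares of 30.8% and 7.69% against 28.5% and 12.4% over all listed genes tested. Podel.04G110100 had 5094, 5204, and 5374 FPKM in F_G and 417, 438, and 427 FPKM in F_P (log2 fold change −3.61, SE 0.05, adjusted p = 1.50e-08), a 12.2-fold decrease without overlap. Podel.17G122700, chosen here for its high level after its values were seen, had 4952, 4756, and 6824 FPKM in F_G and 1646, 1590, and 1574 FPKM in F_P (log2 fold change −1.76). Podel.01G144100 fell 13.1-fold, from 50.3 ± 0.832 to 3.85 ± 0.552 FPKM (mean ± SD, n = 3). Podel.08G135000 (ZSY list) rose from 29.7 ± 2.68 to 63.4 ± 2.1 FPKM (mean ± SD, n = 3). The median log2 fold change of the list was −0.38.

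**Figure D5:**
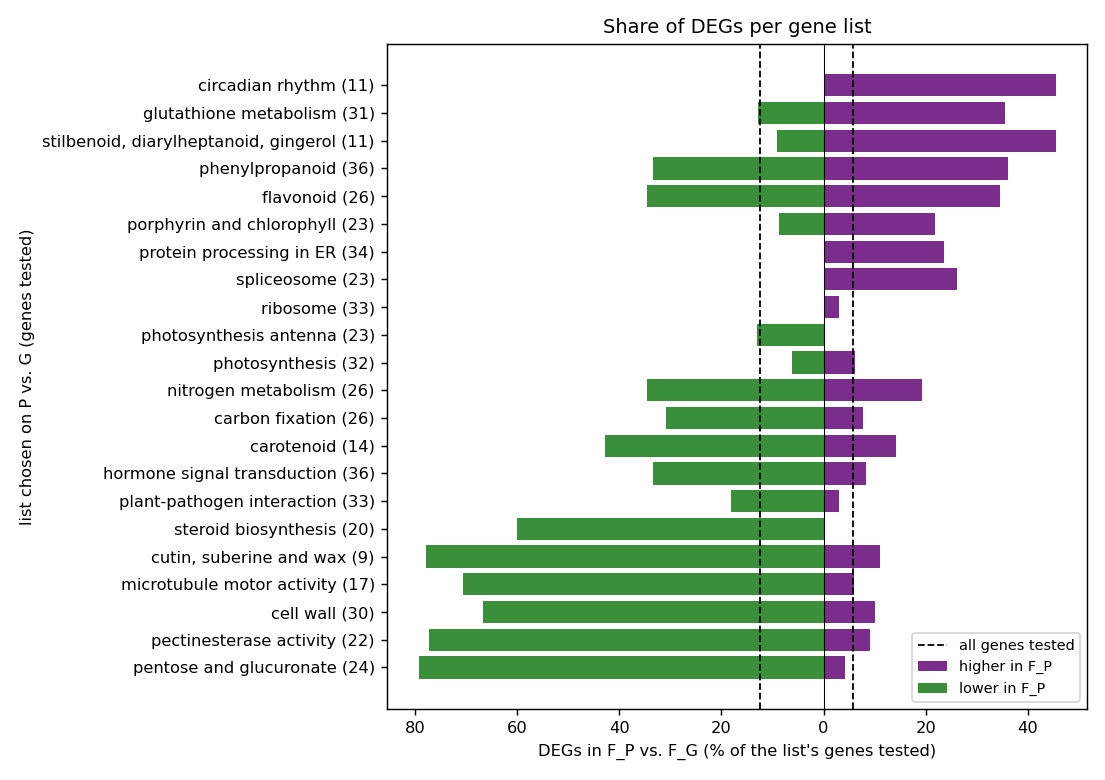
Share of DEGs in F_P vs. F_G for gene lists that the study drew from P vs. G. Bars to the right (purple) and left (green) give the percentage of a list's tested genes that were higher or lower in F_P, the number tested is in parentheses, and dashed lines mark all genes tested (5.68% higher and 12.5% lower). Over all 814 listed genes tested, for which no line is drawn, 12.4% were higher and 28.5% lower. The circadian, glutathione, and stilbenoid lists lean to the right, and the pentose and glucuronate, pectinesterase, and cutin lists have 77.3% to 79.2% of their genes lower in F_P.

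Most tested genes of the cell wall list fell in purple leaves. Of 30 tested genes of the cell wall list, 20 were downregulated and 3 upregulated, and the median log2 fold change was −1.61. The downregulated and upregulated shares were 12.5% and 5.68% over all genes tested, and 28.5% and 12.4% over all listed genes tested. Pectinesterases, which remove methyl groups from pectin and so change the stiffness of the wall, counted 17 downregulated and 2 upregulated of 22 tested, with sums of 212 to 220.4 FPKM in F_G and 45.8 to 49.7 FPKM in F_P. In the pentose and glucuronate list, which shares pectin enzymes with it, 19 of 24 fell and 1 rose, with a median of −1.85. Podel.12G018600 (pectinesterase) had 66.3, 58.4, and 65 FPKM in F_G and 1.82, 1.79, and 1.73 FPKM in F_P (log2 fold change −4.53, SE 0.09, adjusted p = 5.18e-08). Podel.01G174100 of the same list fell from 32.4 ± 1.56 to 0.486 ± 0.191 FPKM (mean ± SD, n = 3), and Podel.15G092700 (pentose and glucuronate list) from 47.4 ± 3.54 to 0.101 ± 0.0237 FPKM (mean ± SD, n = 3). The groups of these 3 genes did not overlap, and the F_P libraries were close to 0 in the latter 2. Podel.11G019700 (pectinesterase, ZSY list) had 40.8, 45.3, and 34.8 FPKM in F_G and 109, 111, and 107 FPKM in F_P and rose 2.71-fold.

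Other wall genes were mixed. In the cellulose synthase list 5 of 13 tested genes fell and 2 rose, but the summed level was higher in purple leaves (255 to 263 FPKM in F_G and 382 to 386 FPKM in F_P). Most of the difference in this sum came from Podel.03G153800, with 38.8, 39, and 53.2 FPKM in F_G and 147, 142, and 146 FPKM in F_P (log2 fold change 1.72). The median log2 fold change of the list was 0.0015. Of 27 copper-binding genes, a group that includes the laccases of lignin formation, 13 fell and 2 rose. Podel.08G088900 of this group had 56.8, 49.6, and 45.5 FPKM in F_G and 0.365, 0.333, and 0.321 FPKM in F_P (log2 fold change −5.26, SE 0.11, adjusted p = 9.89e-08), and Podel.15G043000 rose from 138 ± 1.61 to 403 ± 7.46 FPKM (mean ± SD, n = 3).

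Most tested genes for microtubule motors fell, while few genes of DNA replication passed the filter. Over all listed genes tested, 28.5% fell and 12.4% rose. Of 17 tested genes for microtubule motors, which move along microtubules during division and growth, 12 fell and 1 rose, with a median of −1.36 and sums of 98.7 to 112 FPKM in F_G and 52.1 to 54.2 FPKM in F_P. The gene that rose was Podel.07G013000, with 6.71, 7.33, and 7.11 FPKM in F_G and 14.9, 16.5, and 16.2 FPKM in F_P. In the DNA replication list 7 of 23 genes passed the filter, of which 3 fell. Of 7 mismatch repair genes, 2 fell. Podel.17G013700 (DNA replication and mismatch repair, ZSY lists) had 117, 116, and 96.3 FPKM in F_G and 44.6, 47.6, and 51.6 FPKM in F_P (log2 fold change −1.18).

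More genes for surface lipids and sterols fell than rose, as was so over all listed genes tested (28.5% downregulated and 12.4% upregulated). Downregulated shares were 77.8% in the cutin, suberine, and wax list, 40% in fatty acid elongation, and 60% in steroid biosynthesis. Of 9 tested genes for cutin, suberine, and wax, the lipids of the leaf surface, 7 fell and 1 rose, with a median of −1.46. Podel.02G044500 fell from 67.4 ± 6.17 to 19.8 ± 1.25 FPKM (mean ± SD, n = 3), whereas Podel.05G233000 rose from 37.7 ± 4.79 to 95.8 ± 1.57 FPKM (mean ± SD, n = 3). Of 10 fatty acid elongation genes, 4 fell and none rose, among them Podel.10G209400 (log2 fold change −1.35). Scaling to total fragments gave 6 of these 10. In steroid biosynthesis, the source of membrane sterols, 12 of 20 tested genes fell and none rose, with a median of −1.03 and sums of 411 to 422 FPKM in F_G and 254 to 269.8 FPKM in F_P. Podel.14G169700 (ZSY list) had 52.9, 50.3, and 47.4 FPKM in F_G and 3.61, 5.14, and 3.84 FPKM in F_P (log2 fold change −3.31, SE 0.12, adjusted p = 7.52e-07), and Podel.02G015800 fell from 50.3 ± 3.33 to 15 ± 0.710 FPKM (mean ± SD, n = 3).

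Nitrogen metabolism held the largest decrease among listed genes. Podel.01G371500 had 1411, 1416, and 1492 FPKM in F_G and 2.69, 3.31, and 3.59 FPKM in F_P (log2 fold change −8.43, SE 0.08, adjusted p = 5.67e-09), a 450.1-fold decrease without overlap. Of 26 tested genes of the list, 9 fell and 5 rose. These were 34.6% and 19.2%, against 28.5% and 12.4% over all listed genes tested. The neighbors Podel.12G090900 and Podel.12G091000 rose, with 17.7, 15.2, and 14.5 FPKM in F_G and 87.1, 90.1, and 84.1 FPKM in F_P for the first and 4.75, 3.89, and 5.84 FPKM in F_G and 29.3, 28.6, and 28.6 FPKM in F_P for the second. The sum of the list was 3476 to 3788 FPKM in F_G and 1349 to 1378 FPKM in F_P.

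Glutathione metabolism was among the lists with more upregulated than downregulated genes. The pathway includes glutathione S-transferases, of which one is needed in *Arabidopsis* for anthocyanin to reach the vacuole. Which of the listed genes encode this enzyme class is not annotated. Of 31 tested genes, 11 rose and 4 fell, with a median of 0.87, and the sum was 2048 to 2285 FPKM in F_G and 5368 to 5437 FPKM in F_P. Podel.19G131100 had 3.91, 7.17, and 5.13 FPKM in F_G and 75.7, 74.4, and 77.1 FPKM in F_P (log2 fold change 3.61, SE 0.17, adjusted p = 2.09e-06). Its near neighbor Podel.19G131300 had 30.3, 30.1, and 33.9 FPKM in F_G and 371, 386, and 377 FPKM in F_P (log2 fold change 3.55, SE 0.06, adjusted p = 2.93e-08), an increase of 12-fold. In both genes the lowest F_P library was above the highest F_G library. Podel.07G070700 (ZSY list) fell from 24.7 ± 3.97 to 5.99 ± 0.322 FPKM (mean ± SD, n = 3).

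In the circadian list, 5 of 11 tested genes rose and none fell (median 0.89), but the list holds the CHS genes, 3 of which are among the 5. Of the others, Podel.18G029700 had 19.3, 12.9, and 15.9 FPKM in F_G and 126, 123, and 123 FPKM in F_P (log2 fold change 2.90, SE 0.13, adjusted p = 1.63e-06). Some genes of RNA splicing and of protein folding rose: 6 of 23 spliceosome genes (median 0.41) and 8 of 34 genes for protein processing in the endoplasmic reticulum (median 0.37) were upregulated and none downregulated. Podel.04G193800 (spliceosome, ZSY list) rose from 18.8 ± 1.59 to 52.7 ± 1.68 FPKM (mean ± SD, n = 3). For protein processing, Podel.08G076800 (ZSY list) had 26.3, 31.1, and 47.6 FPKM in F_G and 157, 139, and 131 FPKM in F_P, and Podel.06G102000 (ZSY list) fell from 42.9 ± 1.75 to 13.8 ± 2.87 FPKM (mean ± SD, n = 3).

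In hormone signal transduction, 12 of 36 tested genes fell and 3 rose. These shares of 33.3% and 8.33% compare with 28.5% and 12.4% over all listed genes tested. From the ZSY list, Podel.09G104000 rose from 14.3 ± 2.23 to 46.8 ± 2.01 FPKM (mean ± SD, n = 3) and Podel.14G143100 from 20.4 ± 1.78 to 66.1 ± 2.11 FPKM (mean ± SD, n = 3), whereas Podel.09G095400 fell from 40.8 ± 2.78 to 7.80 ± 0.465 FPKM (mean ± SD, n = 3). The auxin response list was drawn by the study from F_P vs. F_G, so its count of 11 downregulated and no upregulated among 13 tested genes only describes it. Podel.02G159500 of this list had 82.2, 78.5, and 101 FPKM in F_G and 20.8, 21.5, and 21.3 FPKM in F_P. Podel.03G179200 of this list had 27.3, 28.3, and 22.7 FPKM in F_G and 7.88, 8.16, and 8.08 FPKM in F_P. Of 25 defense genes, 10 fell and 2 rose. Podel.17G053400 rose from 180.4 ± 9.29 to 392 ± 10.3 FPKM (mean ± SD, n = 3) and Podel.08G241100 from 66.5 ± 12.8 to 188 ± 5.22 FPKM (mean ± SD, n = 3), while Podel.08G152200 fell from 86 ± 13 to 13.1 ± 0.631 FPKM (mean ± SD, n = 3). Of 33 genes for the interaction of plants with pathogens, 6 fell and 1 rose.

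Further lists of the study that rest on these 6 libraries are given as a description. All 10 tested genes with the term nutrient reservoir activity, which is given to cupin proteins such as germins, were downregulated. Podel.06G156200 had 567, 587, and 639 FPKM in F_G and 1.52, 1.65, and 2.25 FPKM in F_P (log2 fold change −7.74, SE 0.10, adjusted p = 1.44e-08), and Podel.02G204200 fell from 48.1 ± 5.34 to 1.47 ± 0.449 FPKM (mean ± SD, n = 3). Of 9 chitinase genes, whose enzymes cut the chitin of fungal walls, 7 fell and 1 rose. Podel.10G143200 fell 30.7-fold, from 109 ± 10.6 to 3.55 ± 0.383 FPKM (mean ± SD, n = 3), and Podel.19G098600 5.00-fold. Podel.01G413700 of linolenic acid metabolism, from which jasmonate is made, is in lists of both comparisons and rose from 0.485 ± 0.144 to 28 ± 1.05 FPKM (mean ± SD, n = 3).

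Some genes had no fragments in 1 color. In all, 2583 genes were at 0 in the 3 F_P libraries and above 0 in F_G, but 203 of these averaged at least 1 FPKM in F_G and 13 at least 10 FPKM. In the other direction 1434 genes were at 0 in F_G, 48 of them averaging 1 FPKM or more and none 10 FPKM or more in F_P. Podel.06G066700 (chromosome 6, 4992993 to 4993620) had 313, 306, and 247 FPKM in F_G, or 3007, 3191, and 2376 fragments, and 0 in F_P. This is at least 980.0-fold lower at a floor of 3 fragments per library. Podel.01G267100 had 359, 422, and 337 fragments in F_G and 0 in F_P, at least 128-fold lower. Podel.04G191500 had 145, 159, and 158 fragments in F_P and 0 in F_G, at least 49.7-fold higher. Podel.17G054300, with 19, 7, and 16 fragments in F_P and 0 in F_G, was at least 4.52-fold higher. None of these 4 genes is in the parts of the study's lists that could be read. Of the other genes outside those parts, Podel.18G025600 was close to silent in F_P, with 188, 191, and 202 FPKM in F_G and 0, 0.0928, and 0 FPKM in F_P (log2 fold change −7.56). Podel.08G182600 and Podel.14G098600 had the largest increases among them, with 0.234, 0.937, and 0.467 FPKM in F_G and 82.4, 82.3, and 85.9 FPKM in F_P for the first and 2.28, 1.24, and 1.64 FPKM in F_G and 136, 135, and 125 FPKM in F_P for the second.

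Whether a gene changed differently in ZSY than between the cultivars QHP and L2025 was tested with the difference of both log2 fold changes in 1 fit of all 12 libraries. P vs. G had 6931 DEGs among 26577 tested genes (26.1%), 9.85% of the genes tested being upregulated and 16.2% downregulated in P. The change differed for 5728 of 28339 genes (20.2%), being higher in ZSY for 2828 (9.98%) and lower for 2900 (10.2%). This split depends on the scaling: after scaling to total fragments, 34.6% of the differing genes were higher in ZSY in place of 49.4%, and the median difference moved from 0.03 to −0.18. Many of the leading genes of the pathway showed no called difference: PdeCHS2 (0.05), PdeF3'H1 (0.44), PdeDFR (−0.0042), PdeANS3 (−0.25), PdeUFGT5 (−0.24), and PdeMYB1 (0.09). The SEs of these 6 differences were 0.0975 to 0.212. A difference under 1 on the log2 scale was not called whatever its SE, so these values do not show equal changes. PdeF3H2 fell more in ZSY (log2 fold change −1.99) than in P vs. G (−0.76). PdeF3'5'H2 fell in ZSY (−1.71) and rose in P vs. G (1.06), and PdeFLS2 rose in ZSY (1.80) with a value of 0.15 in P vs. G (difference 1.65). The log2 fold changes of Podel.19G103100, of the study's list for ADP binding, were −1.88 in ZSY, where it had 433, 433, and 414 FPKM in F_G and 115, 119, and 112 FPKM in F_P, and 1.57 in P vs. G.

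The DEGs were spread over all 19 chromosomes. The share of tested genes that were DEGs ranged from 16.2% on chromosome 15 to 21.0% on chromosome 12, and the median log2 fold change from −0.03 on chromosome 16 to 0.09 on chromosome 14. All coordinates are those of the deposited annotation, whose genome build is not named in it.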

How the data were processed

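RNA-seq libraries of leaf mRNA (NEBNext Ultra, Illumina paired-end) were compared, 3 per group, with groups taken from the sample labels. The authors deposited FPKM per gene, and the submitters' processing notes name HISAT2, StringTie, and DESeq. No source used here gives their versions. For checked values up to 1000 fragments, FPKM times exon length came out at whole fragments (within 0.02) in 100% of cases. Genes outside the deposited annotation numbered 1317. The deposited annotation gave positions, and 0 of 31722 locus IDs matched the RefSeq gene table, so single genes carry no name beyond the study's own.

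Genes that reached 1 FPKM in 3 or more libraries entered limma 3.58.1 as log2(FPKM + 1), with a trend on the mean (R 4.3.3) and Benjamini-Hochberg adjustment over all genes tested, for F_P vs. F_G with its 6 libraries and for the difference from P vs. G in a fit of 12 libraries. The code was tested on simulated data. Tables were made in Python 3.11.15 with pandas 2.3.3, numpy 2.4.6, and matplotlib 3.10.9. Alternatives were a pseudocount of 0.1, no filter, no minimum change, limma's treat test of changes over 1, an adjusted p of at most 0.01, 2 scalings, all 12 libraries in 1 fit, the replicate block, voom on recovered fragments, and leaving out each replicate.

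The members and lists were chosen with earlier results of these data known. Genes were named by rule. These are the genes of the study's structural and regulator tables and, per list, up to 2 per direction with the largest change among DEGs whose groups did not overlap and that averaged 10 FPKM or more. To these come the 5 largest per direction over all lists, up to 2 per direction in no list, and the 2 highest genes per direction at 0 in a color.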

Additional observations from a re-analysis of the deposited data

Results flagged for a closer look

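For 52 of the 124 named genes with a tested difference, the change between leaf colors in ZSY differed from the change in P vs. G, by limma's test of the difference at an adjusted p of at most 0.05 over 28339 genes and a difference of at least 1 on the log2 scale. The change was higher in ZSY for 22 of them and lower for 30. Under other scalings, this test was read only as counts over all genes and not for single genes. Scaling to total fragments moved the median difference over all genes from 0.03 to −0.18, so flags with a difference close to 1 are uncertain. P vs. G compares 2 cultivars, so cultivar and leaf color cannot be told apart there. Of all genes tested, 20.2% differed in this way, and the named genes were selected for their change in ZSY, which is one side of the difference. Values in parentheses are the log2 fold change in F_P vs. F_G minus that in P vs. G.

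Among structural genes of the flavonoid pathway, the change was higher in ZSY for PdeCHS5 (1.29), PdeF3H1 (1.55), PdeANS1 (2.25), PdeANS2 (1.54), PdeANS4 (1.24), PdeFLS2 (1.65), PdeUFGT1 (1.34), PdeUFGT2 (2.08), and PdeUFGT3 (1.96). PdeCHS5 and PdeUFGT2 did not pass the filter in F_P vs. F_G, and PdeUFGT3 did not pass it in P vs. G. Their differences depend on low values and the added 1 FPKM, and need not reflect a different fold change. It was lower for PdeCHS4 (−1.34), PdeF3H2 (−1.23), and PdeF3'5'H2 (−2.77). PdeANS1 and PdeANS2, neighbors on chromosome 4, had log2 fold changes of 0.57 and 0.46 in ZSY and −1.68 and −1.08 in P vs. G. Of the MYB and bHLH genes, Podel.14G127200 (1.34) and Podel.07G028600 (1.08) were higher in ZSY, and Podel.09G121500 (−3.38), Podel.02G040700 (−2.29), Podel.15G110700 (−1.91), and Podel.01G109500 (−1.28) were lower. In the flavonoid and phenylpropanoid lists, Podel.15G003000 (3.15) was higher, and Podel.02G036000 (−1.75), Podel.04G031200 (−1.26), and Podel.04G013500 (−1.35) were lower.

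In photosynthesis and pigment lists, Podel.01G437500 (1.41) was higher, and Podel.13G173700 (−1.36) and Podel.09G082800 (−1.52) were lower. In wall, surface, and sterol lists, Podel.02G044500 (1.38) was higher, and Podel.12G018600 (−1.86), Podel.08G088900 (−2.23), Podel.15G043000 (−2.07), and Podel.14G169700 (−3.14) were lower. In nitrogen and glutathione metabolism, Podel.19G131100 (2.48) and Podel.19G131300 (1.62) were higher, and Podel.01G371500 (−3.83), Podel.12G091000 (−1.0046), and Podel.07G070700 (−1.26) were lower. In the hormone, auxin, linolenic acid, circadian, and transcription factor lists, Podel.09G104000 (1.62), Podel.01G413700 (1.64), Podel.18G029700 (1.01), Podel.12G029300 (2.75), and Podel.T298300 (2.85) were higher, and Podel.09G095400 (−1.38), Podel.02G159500 (−1.02), and Podel.03G179200 (−3.18) were lower. In the defense, chitinase, nutrient reservoir, and ADP binding lists, Podel.17G053400 (−2.28), Podel.08G152200 (−1.26), Podel.10G143200 (−4.92), Podel.06G156200 (−3.85), Podel.02G204200 (−3.37), and Podel.19G103100 (−3.45) were lower. Of the genes in none of the lists as read, Podel.17G054300 (1.66) was higher, and Podel.06G066700 (−5.45) and Podel.18G025600 (−1.12) were lower. Fitted differences of genes that were at 0 in all libraries of a group, or near or under 1 FPKM in a group, depend on the added 1 FPKM.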

How the results depend on the processing

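The count of 4685 DEGs in F_P vs. F_G (1461 up and 3224 down) became 14301 (7373 up and 6928 down) with no minimum change and 2120 (499 up and 1621 down) when the change was tested against a log2 fold change of 1. For the listed genes these settings gave 634 (246 up and 388 down) and 196 (50 up and 146 down), and for the difference from P vs. G 12857 (6784 higher and 6073 lower) and 1963 (840 higher and 1123 lower). limma voom on recovered fragments gave 1854 genes higher and 4984 lower for that difference. Under median-of-ratios scaling the highest chromosome median, on chromosome 14, moved from 0.0944 to 0.0831. With each replicate left out in turn, the DEGs numbered 4627 to 4952 (1431 to 1651 up and 3196 to 3301 down), the structural genes called 20 to 22 (10 to 13 up and 8 to 11 down), the listed genes called 331 to 342 (99 to 105 up and 230 to 240 down), and the differences 5553 to 6073 (2715 to 3017 higher and 2838 to 3056 lower). No gene called in F_P vs. F_G was called in the opposite direction under any alternative. Of the 122 named genes tested, 97 kept their call or lack of it in every alternative. No pairing by replicate number was seen: deviations from the group means in same-numbered F_G and F_P libraries had correlations of 0.0148, 0.0001, and −0.0243. These values cannot tell whether leaves of both colors came from the same plants. With the replicate block the count was 4720 (1483 up and 3237 down), of which 4683 were shared. The family sums kept their direction under each scaling, which was checked after seeing the data, as was leaving out the chromosome 13 stretch. Scaling to total fragments changed the sign of the median of 4 lists (flavonoid, cellulose synthase, ribosome biogenesis, and transcription factor) and of the median over all genes tested. Depth limits genes near 1 FPKM, and an exact permutation test of 3 libraries against 3 has 0.10 as its smallest p.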
